A study of Mus musculus with 18 samples.

Results

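Xenobiotic enzymes other than the cytochromes P450 were compared between mouse lung and lung tumors. The genes were a list of 9: the flavin-containing monooxygenases Fmo1 and Fmo2, the aldehyde oxidase Aox3, the electron donor Por, the hydrolases Pon1, Ces1d and Ephx1, and the transferases Inmt and Sult1a1. They were chosen by symbol, among probe sets annotated to a single gene, and each gene was read from its probe set with the highest mean. Of the 9, 8 had such a probe set, among 18193 genes measured. Por had none in the probe annotation used and is not analysed here.

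The study exposed B6C3F1/N mice to an aerosol of antimony trioxide by whole-body inhalation. The air held 0, 3, 10 or 30 mg/m3, and daily sessions of 6 hours and 12 minutes were given on 5 days of each week over as many as 105 weeks. The mice were 5 to 6 weeks old when the studies began. RNA was hybridised to 18 arrays in 3 groups of 6: lung of vehicle controls, tumors named spontaneous, and tumors from antimony-treated animals, which the series title calls alveolar/bronchiolar carcinomas. The labels do not say which concentration a treated tumor had, what exposure the animals with spontaneous tumors had, or whether the 6 arrays of a group came from separate animals, so each p-value measures the spread between these samples only.

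Enzymes of this kind make fat-soluble chemicals more reactive or more soluble so that they can leave the body. Monooxygenases and oxidases add oxygen, hydrolases split esters, lactones and epoxides with water, and transferases attach a methyl or sulfate group. In lung they are best known from the airway epithelium, above all the secretory club cells, which meet inhaled chemicals first. Type 2 and type 1 cells line the alveoli, and type 2 cells make surfactant.

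Over the whole table, 15 arrays resembled each other, with a median correlation to the other arrays of 0.92 to 0.97. Control 5, spontaneous 5 and spontaneous 6 stood apart, with median correlations of 0.30 to 0.48 and an SD of log2 values across probe sets of 1.27 to 1.48 against 2.35 to 2.45 in the rest. These 3 arrays were left out, which leaves 5 control, 4 spontaneous and 6 treated arrays, and the counts with them are given beside the main ones. Type 2 cell genes were high in all 15 arrays, with a list mean of 12.1 to 13.5 on the log2 scale. Every value below is a log2 value from the deposited table, so a difference of 1 is a doubling, and no gene's level is set against another gene's.

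The stretches before the start sites of 3 of these genes are shown because they belong to the members with the furthest shift in each direction for which RefSeq sequence was given: Pon1 and Inmt, which fell in both tumor groups, and Aox3, which was higher in spontaneous tumors. Each is 250 bases up to an annotated start site in GRCm38.p6, written 5′ to 3′ on the gene's strand. Those of Pon1 and Inmt are on the minus strand at chr6:5193947-5194196 and chr6:55174991-55175240, and that of Aox3 is on the plus strand at chr1:58112886-58113135. Capitals mark matches on either strand to the 7 motifs searched.
Pon1: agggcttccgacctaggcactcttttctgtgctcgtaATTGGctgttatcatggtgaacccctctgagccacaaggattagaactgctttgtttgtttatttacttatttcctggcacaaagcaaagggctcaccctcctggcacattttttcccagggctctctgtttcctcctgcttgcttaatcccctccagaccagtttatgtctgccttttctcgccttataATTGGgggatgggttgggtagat
Inmt: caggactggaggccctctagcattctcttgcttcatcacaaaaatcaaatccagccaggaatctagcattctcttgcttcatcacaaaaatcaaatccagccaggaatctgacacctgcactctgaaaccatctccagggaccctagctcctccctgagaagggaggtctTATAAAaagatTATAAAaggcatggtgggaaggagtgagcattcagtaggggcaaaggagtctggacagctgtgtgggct
Aox3: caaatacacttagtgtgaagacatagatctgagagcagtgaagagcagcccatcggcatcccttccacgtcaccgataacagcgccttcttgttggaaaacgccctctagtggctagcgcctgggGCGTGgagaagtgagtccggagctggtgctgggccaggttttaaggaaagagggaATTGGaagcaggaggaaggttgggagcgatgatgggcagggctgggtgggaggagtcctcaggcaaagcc

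The motifs were the TATA box TATAAA, the CCAAT box, the GC box GGGCGG, the aryl hydrocarbon receptor core GCGTG, the antioxidant response core TGACNNNGC, the nuclear receptor half-site AGGTCA and the forkhead core TGTTTAC. The Inmt stretch held TATAAA at 2 places, a motif found in 12.4% of 32851 RefSeq stretches of the same length. The Pon1 stretch held CCAAT at 2 places, both as the reverse complement ATTGG, and CCAAT was found in 33.8% of all stretches. The Aox3 stretch held CCAAT once and GCGTG once, the latter found in 28.2% of all stretches. No matches overlapped, and none of these 3 stretches held GGGCGG (32.7% of all), TGACNNNGC (10.2%), AGGTCA (14%) or TGTTTAC (3.17%). Of the 9 genes, 7 had a RefSeq stretch.

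In spontaneous tumors, 6 of the 8 measured enzymes fell against control lung: Fmo1, Fmo2, Pon1, Ces1d, Ephx1 and Inmt. Aox3 was higher, and Sult1a1 did not pass the test. In treated tumors the genes that fell were again those 6, and neither Aox3 nor Sult1a1 passed. Pon1, Fmo1 and Inmt fell by 4.92 to 6.50 on the log2 scale, whereas Fmo2, Ces1d and Ephx1 fell by 0.87 to 1.49. The test was limma's moderated test over 15 arrays, with Benjamini-Hochberg adjustment over all 18193 genes and a threshold of 0.05. Both tumor groups are set against the same control arrays, so the comparisons are not independent of each other.

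Against this background, 12.9% of all genes were called lower in spontaneous tumors and 15% in treated tumors, and 20.1% and 23.8% were called higher. In each comparison the 6 enzymes called lower had every tumor array below every control array, as had 11.4% of all genes in spontaneous tumors and 10.1% in treated tumors. The median log2 fold change of the 8 enzymes was -1.21 in both comparisons, beside 0.12 and 0.089 over all genes. With the 3 deviating arrays included, only Fmo1, Pon1 and Inmt were called lower in either comparison, where 3.13% and 4.46% of all genes were. In bulk tissue, fewer cells of a type and less RNA per cell cannot be told apart.

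**Figure D1:**
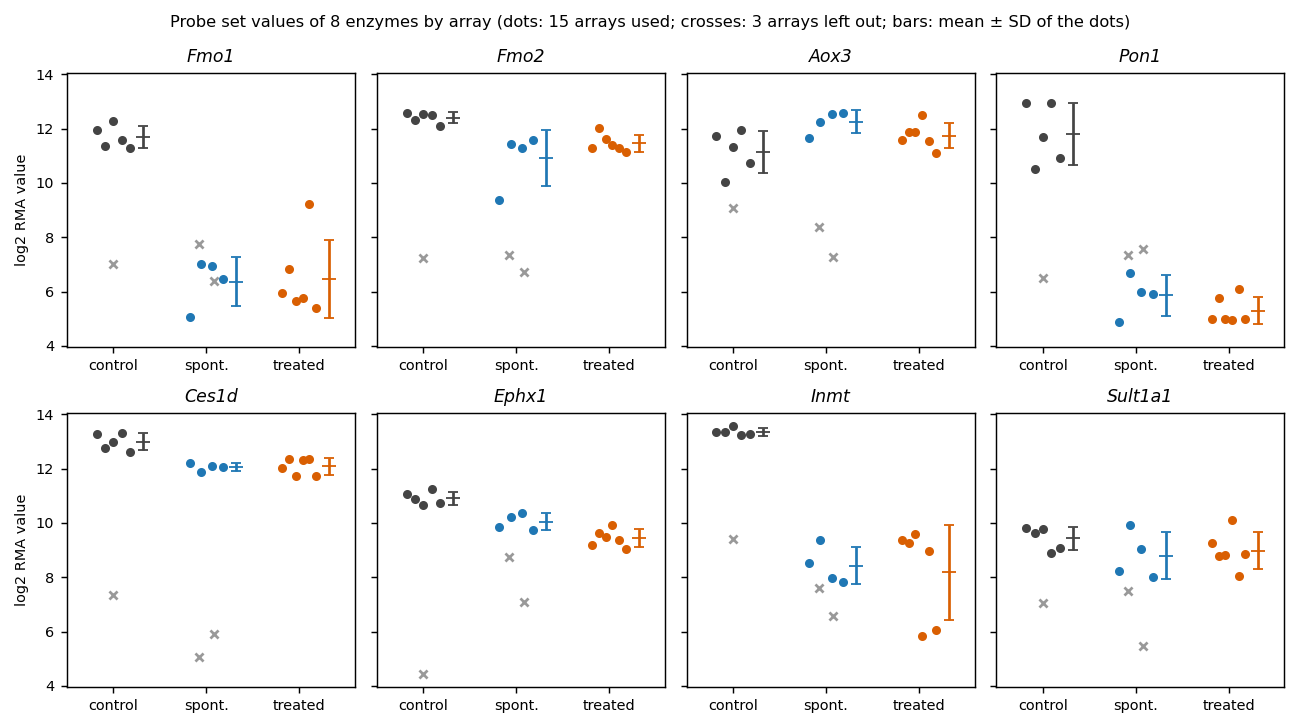
Log2 values (y axis) of the 8 measured enzymes in control lung, spontaneous tumors and treated tumors (x axis); each dot is 1 of 15 arrays, crosses are the 3 arrays left out, and bars are the mean ± SD of the dots. Fmo1, Pon1 and Inmt lie well below control in every tumor, with treated array 5 high for Fmo1 at 9.23, while Aox3 and Sult1a1 overlap between groups.

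Of the oxygenating enzymes, Fmo1 had the larger fall. This monooxygenase of the endoplasmic reticulum oxidises nitrogen and sulfur atoms of drugs and pesticides, and its gene lies at chr1:162829561-162866610, 7706 bases from Fmo2. Control lung gave 11.94, 11.37, 12.29, 11.59 and 11.30 for arrays 1, 2, 3, 4 and 6. The spontaneous tumors gave 5.07, 7.0, 6.95 and 6.46. The treated tumors ran from 5.40 to 9.23, with a median of 5.85.

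All tumor arrays lay below all controls, and the spontaneous and treated tumors overlapped. Fmo1 fell by 5.33 ± 0.64 (SE) in spontaneous tumors, or 40.2-fold (adjusted p = 1.97e-05, limma). In treated tumors it fell by 5.23 ± 0.58, or 37.5-fold (adjusted p = 6.06e-06). Treated array 5 stood above every other tumor array; without it the fall in treated tumors was 5.78. Fmo1's SD of 1.44 (n = 6) among treated tumors was larger than that of 99.2% of genes, beside 0.41 (n = 5) in control lung.

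Fmo2 encodes the flavin-containing monooxygenase best known from lung. Its control values were 12.57, 12.33, 12.55, 12.50 and 12.08, and its spontaneous tumor values 9.38, 11.43, 11.30 and 11.57. Treated tumors ran from 11.15 to 12.03, with a median of 11.35. The highest treated value lay only 0.053 below the lowest control value. Fmo2 fell by 1.49 ± 0.35 in spontaneous tumors (adjusted p = 0.00427, limma) and by 0.94 ± 0.31 in treated tumors (adjusted p = 0.027).

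Single arrays moved these Fmo2 values. Spontaneous array 1 was far below the rest of its group, and without it the fall in spontaneous tumors was 0.97 (adjusted p = 0.0014). In treated tumors the call was lost, with adjusted p of 0.0531 to 0.0593, when control 1, control 3, control 4 or treated 6 was left out, at falls of 0.88 to 0.92; without spontaneous 1, which also enters the shared estimate of the spread, it was 0.00023. The gene has 4 further probe sets. In spontaneous tumors all 4 were lower by limma, by 1.62 to 1.86, and in treated tumors 3 were, by 1.20 to 1.25, whereas the remaining 1 differed by -0.47 (adjusted p = 0.521).

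Aox3, a molybdenum enzyme of the cytosol that oxidises aldehydes and nitrogen heterocycles, was the only one of the 8 enzymes called higher. Its control values were 11.72, 10.02, 11.32, 11.96 and 10.73, and its spontaneous tumor values 11.66, 12.24, 12.54 and 12.59. Treated tumors ran from 11.12 to 12.49, with a median of 11.72. Of the 4 spontaneous tumors 3 lay above every control, and the groups overlapped.

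The difference for Aox3 was 1.11 ± 0.36 in spontaneous tumors (adjusted p = 0.0261, limma; exact permutation p = 0.0476, two-sided) and 0.59 ± 0.32 in treated tumors (adjusted p = 0.16, 95% interval -0.089 to 1.28). The call in spontaneous tumors was lost without control 2 (0.82, adjusted p = 0.0542), control 6 (1.00, 0.057), spontaneous 3 (1.01, 0.0693) or spontaneous 4 (0.99, 0.0745). With all 18 arrays the difference was -0.030.

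Among the hydrolases, Pon1 had the largest fall of the 8 enzymes. Paraoxonase 1 hydrolyses lactones and the oxons of organophosphate insecticides and is best known as a liver product carried on high-density lipoprotein; its gene lies at chr6:5168090-5193987. Control lung gave 12.95, 10.52, 11.68, 12.95 and 10.91. The spontaneous tumors gave 4.87, 6.69, 5.98 and 5.92, and the treated tumors 4.96 to 6.11 with a median of 4.99.

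Pon1 was far lower in all 10 tumor arrays than in any control array, although the controls themselves ranged over 2.43. The fall was 5.94 ± 0.50 in spontaneous tumors, or 61.3-fold (adjusted p = 7.72e-07, limma), and 6.50 ± 0.45 in treated tumors, or 90.7-fold (adjusted p = 7.2e-08). Treated arrays 1, 3, 4 and 6 gave 4.99, 4.99, 4.96 and 4.98. Whether such low values are background was not tested, and RMA may understate folds there. The SD of Pon1 in control lung, 1.13 (n = 5), was larger than that of 99.2% of genes.

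Ces1d, a carboxylesterase that splits ester drugs and lipids, fell less and more evenly. It was 13.28, 12.77, 12.97, 13.31 and 12.61 in control lung and 12.20, 11.87, 12.09 and 12.05 in spontaneous tumors. Treated tumors ran from 11.71 to 12.37, with a median of 12.18. No tumor reached the lowest control. Ces1d fell by 0.93 ± 0.18 in spontaneous tumors (adjusted p = 0.00111, limma) and by 0.90 ± 0.16 in treated tumors (adjusted p = 0.000479). Its other 2 probe sets were lower too, by 0.85 and 1.37 in spontaneous and by 0.80 and 1.18 in treated tumors, where on both of them treated and control values overlapped. Carboxylesterase genes are close copies of each other, so part of a probe set's signal may belong to a paralog.

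Ephx1 encodes microsomal epoxide hydrolase, which opens reactive epoxides, those of polycyclic aromatic hydrocarbons among them, into diols. Control values were 11.06, 10.88, 10.65, 11.25 and 10.72, and spontaneous tumor values 9.85, 10.23, 10.38 and 9.72. Treated tumors ran from 9.04 to 9.94, with a median of 9.43. Controls were highest, and 5 of the 6 treated tumors lay below all 4 spontaneous ones. Ephx1 fell by 0.87 ± 0.19 in spontaneous tumors (adjusted p = 0.00283, limma) and by 1.47 ± 0.17 in treated tumors (adjusted p = 1.07e-05).

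Of the transferases, Inmt fell and Sult1a1 did not pass. Inmt encodes indolethylamine N-methyltransferase, which methylates tryptamine and other amines and is known for a high level in lung; its gene lies at chr6:55170627-55174990. Control lung was tight at 13.35, 13.35, 13.58, 13.23 and 13.26. Spontaneous tumors gave 8.53, 9.37, 7.98 and 7.83, and treated tumors 5.83 to 9.60 with a median of 9.11.

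Treated arrays 4 and 6, at 5.83 and 6.05, lay below all other tumors, and the other 4 treated arrays were at 8.96 or more. Inmt fell by 4.92 ± 0.71 in spontaneous tumors, or 30.4-fold (adjusted p = 0.000103, limma), and by 5.17 ± 0.64 in treated tumors, or 36.1-fold (adjusted p = 1.85e-05). Its SD was 0.14 in control lung (n = 5) and 1.75 among treated tumors (n = 6), the latter larger than in 99.7% of genes.

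Sult1a1, a cytosolic sulfotransferase for phenols, gave 9.80, 9.62, 9.79, 8.91 and 9.07 in control lung and 8.23, 9.92, 9.03 and 8.02 in spontaneous tumors. Treated tumors ran from 8.06 to 10.11, with a median of 8.84. All 3 groups overlapped, and a tumor was the highest array of all. The difference was -0.64 ± 0.40 in spontaneous tumors (adjusted p = 0.241, limma; 95% interval -1.50 to 0.22) and -0.46 ± 0.36 in treated tumors (adjusted p = 0.346; -1.23 to 0.31).

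**Figure D2:**
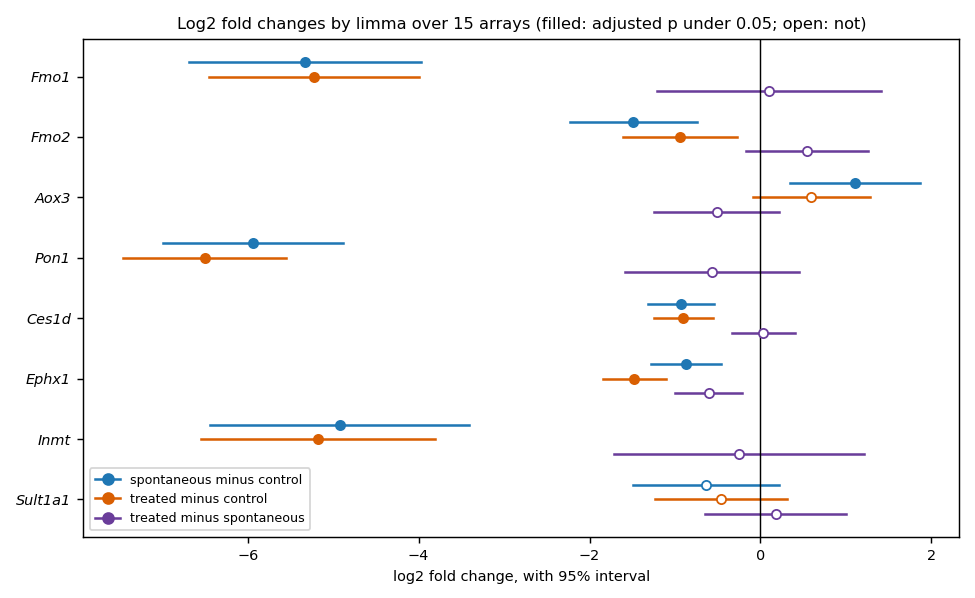
Log2 fold changes (x axis) of the 8 enzymes (y axis) with 95% intervals from limma over 15 arrays, for spontaneous tumors against control, treated tumors against control and treated against spontaneous tumors; filled points have an adjusted p under 0.05. The 6 enzymes that fell lie left of 0 against control, and no point for treated against spontaneous tumors is filled.

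Between treated and spontaneous tumors none of the 8 enzymes passed the test, where 0.0220% of all genes (4 genes) were called lower and 0.0330% (6 genes) higher. At an unadjusted p under 0.05 limma marked 1 of the 8, Ephx1, which was lower in treated tumors by -0.61 ± 0.18 (unadjusted p = 0.005, adjusted p = 0.325, 95% interval -0.998 to -0.21). The exact permutation test gave Ephx1 p = 0.0238, two-sided and not adjusted for the 8 genes, and none of the other 7 genes an exact p under 0.05. The intervals of the difference for the other genes all held 0. For the genes with large falls they were wide: -1.21 to 1.41 for Fmo1, -1.58 to 0.45 for Pon1 and -1.71 to 1.21 for Inmt. For Ces1d the interval was -0.34 to 0.40, and for Fmo2 it was -0.17 to 1.26.

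Other genes of the same pathways were described from 6 lists of 102 genes, of which 86 were measured. These genes moved in both directions: 19 fell and 14 rose in spontaneous tumors, and 19 fell and 22 rose in treated tumors. Of all genes, 12.9% were called lower and 20.1% higher in spontaneous tumors, and 15% lower and 23.8% higher in treated tumors. The pathway genes had median log2 fold changes of 0.051 and 0.077, beside 0.12 and 0.089 over all genes. None of the 86 passed between treated and spontaneous tumors.

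Of the other flavin-containing monooxygenases 2 were measured, and they moved in opposite directions. Fmo5 fell by 1.39 ± 0.19 in spontaneous and 1.16 ± 0.17 in treated tumors (adjusted p = 5.64e-05 and 8.13e-05, limma). Fmo4 rose by 1.65 ± 0.32 and 1.95 ± 0.29 (adjusted p = 0.00122 and 9.6e-05).

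Of 19 other hydrolases, 5 fell in each tumor group, and 2 rose in spontaneous and 3 in treated tumors. The carboxylesterases Ces1f, Ces1g and Ces2g fell by 2.73, 2.69 and 2.14 in spontaneous tumors and by 2.78, 2.32 and 3.02 in treated tumors. Ephx4, a relative of the epoxide hydrolases, fell by 1.92 and 1.75, and Ephx3 by 0.46 and 0.74. The other paraoxonases went against Pon1: Pon3 rose by 0.66 and 0.52, and Pon2 rose by 0.65 in treated tumors.

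Of 18 other oxidoreductases, 6 fell and 2 rose in spontaneous tumors, and 8 fell and 3 rose in treated tumors. The retinal dehydrogenase Aldh1a1 fell by 4.16 and 3.96, and the alcohol dehydrogenase Adh1, which oxidises ethanol and retinol, by 3.18 and 2.06. Cbr2, a carbonyl reductase known from club cells, fell by 4.64 in treated tumors. The amine oxidase Maoa fell by 1.00 in spontaneous and 0.43 in treated tumors. Dhrs4, a peroxisomal carbonyl reductase, rose by 1.07 and 0.89, and the formaldehyde-oxidising Adh5 by 0.45 and 0.70. Aldh1a1 and Cbr2 are also on the club cell list used below.

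Of 24 genes for conjugation and its donors, 4 fell and 3 rose in spontaneous tumors, and 3 fell and 7 rose in treated tumors. The sulfotransferases split. Sult1d1 fell by 3.24 and 3.05 and Sult5a1 by 2.11 and 2.06, whereas Sult2b1, which sulfates cholesterol, rose by 1.98 and 1.69. Papss1, which makes the sulfate donor, rose by 0.69 and 0.74, whereas Papss2 fell by 2.11 in spontaneous tumors. Hnmt, the methyltransferase for histamine, rose by 1.39 in spontaneous and 0.83 in treated tumors. Tpmt, that for thiopurines, rose by 1.76 in treated tumors.

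Por itself was not analysed here, but of 9 other electron transfer genes 2 fell in each group. Pgrmc1, a heme-binding partner of P450 enzymes, fell by 3.06 and 1.89, and cytochrome b5, Cyb5a, by 0.95 and 0.92. Mtrr, a flavoprotein related to Por, rose by 0.58 and 0.76, and Cyb5r1 rose by 0.52 in spontaneous tumors. Of 14 transcription factors 1 fell and 4 rose in spontaneous tumors and 7 rose in treated tumors. Cebpa rose by 2.01 and 1.77, Pparg by 1.37 and 1.55 and Ppara by 1.11 and 0.93. The dioxin receptor Ahr fell by 0.72 in spontaneous tumors, and Nfe2l2, which drives antioxidant genes, rose by 0.53 in treated tumors. Nqo1, on the oxidoreductase list, fell by 1.96 in spontaneous and 1.35 in treated tumors.

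**Figure D3:**
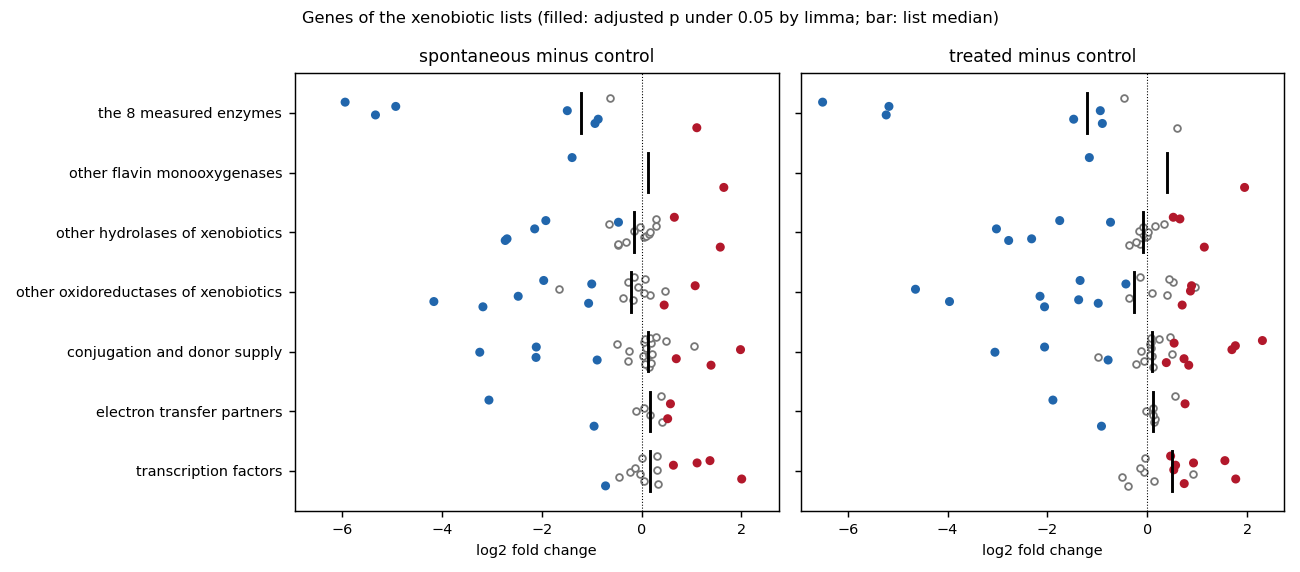
Log2 fold changes (x axis) of the 8 measured enzymes and of the genes on 6 related lists (y axis), for spontaneous tumors against control on the left and treated tumors against control on the right; 1 point per gene, filled where adjusted p was under 0.05 by limma, with a bar at each list's median. The 8 enzymes have a median of -1.21 in both panels, with Aox3 to the right of 0, and each other list also has genes on both sides of 0.

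Marker genes of several lung cell types moved with these enzymes. Of 13 ciliated cell markers all fell in both tumor groups, with list means of 9.45 to 10.84 in control, 5.84 to 7.08 in spontaneous and 5.82 to 6.60 in treated arrays; Foxj1, the transcription factor of motile cilia, fell by 4.27 and 4.41. Of 10 club cell markers 5 fell in spontaneous and 8 in treated tumors and 1, Kcnk1, rose in both; list means were 11.5 to 11.8 in control, 8.32 to 10.2 in spontaneous and 7.28 to 9.83 in treated arrays. The secretoglobin Scgb1a1, the club cell product, differed by -2.20 in spontaneous tumors (adjusted p = 0.115, limma) and fell by 4.59 in treated tumors. Of 11 alveolar type 2 markers 8 rose in each, Napsa by 3.03 and 2.31, and of 11 alveolar type 1 markers 8 fell in each, Igfbp2 by 3.43 and 3.78. The type 2 list means were 12.1 to 12.8 in control, 13.3 to 13.5 in spontaneous and 13.2 to 13.3 in treated arrays, and those of the type 1 list 11.8 to 12.2, 9.50 to 10.97 and 9.29 to 10.6.

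Most fibroblast, endothelial and smooth muscle markers fell as well. Of 12 resident fibroblast markers 7 fell in each tumor group, Ogn by 7.08 and 7.40, with list means of 10.3 to 11.1 in control, 7.79 to 8.79 in spontaneous and 7.64 to 9.01 in treated arrays; Col1a1 rose by 0.81 in treated tumors. Endothelial markers fell at 10 of 12 genes in spontaneous and 12 of 12 in treated tumors, and smooth muscle markers at 7 and 8 of 8. Of 9 immune markers 2 and 4 fell, Cd79a by 2.06 and 2.23. Marco, Itgax and Cd68 of the same list were higher in both tumor groups, but none passed (adjusted p = 0.0571 to 0.289, limma). Marco differed by 1.57 and 2.42, Itgax by 1.59 and 1.11, and Cd68 by 1.56 in spontaneous tumors. The differences of all other markers on this list were negative in both groups. Of 6 hepatocyte markers none passed in spontaneous tumors and 2 rose in treated tumors, Alb by 2.49 and Apob by 2.86, with list means of 4.69 to 5.23 in control, 5.19 to 5.83 in spontaneous and 4.91 to 7.03 in treated arrays. The part of these cell types in the enzymes' values was not tested.

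Within groups, some enzymes ran beside a marker list. Treated array 5, the highest tumor for Fmo1, had the highest club cell mean of the treated arrays, 9.83, beside 7.28 to 8.30 in the other 5. Its ciliated, smooth muscle and hepatocyte means, 6.60, 8.37 and 7.03, were the highest of the treated arrays too. Spontaneous array 2 was the highest of its group on both, with an Fmo1 value of 7.0, beside 6.95 in spontaneous 3, and a club cell mean of 10.2. This array was the highest of its group on the type 1, fibroblast, endothelial and smooth muscle lists as well, at 10.97, 8.79, 9.30 and 8.36. It was also the highest tumor for Pon1, at 6.69, and for the ciliated list, at 7.08. Treated arrays 4 and 6, the lowest for Inmt, had the lowest fibroblast means of the treated arrays, 7.76 and 7.64, beside 8.16 to 9.01 in the other 4.

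Control arrays differed among themselves too, but Fmo1 and Inmt did not follow the club cell and fibroblast lists there. Control 3, the highest control for Fmo1 at 12.29 and for Inmt at 13.58, had the lowest control club cell mean, 11.47. Its fibroblast mean was 10.55, beside 11.13 in control 2, where Inmt was 13.35. Controls 1 and 4, with the highest Pon1 at 12.95 in each, also had the 2 highest control values of Aox3, Ces1d and Ephx1, and the 2 highest ciliated means, 10.49 and 10.84. Their club cell means, 11.85 in each, and smooth muscle means, 10.66 and 10.94, were the 2 highest of the controls too. Their type 2, type 1, fibroblast and immune means were the 2 lowest of the controls. Controls 2 and 6, with the lowest Pon1 and Aox3, had immune marker means of 10.2 and 10.3, beside 8.26 to 8.65 in the other 3 controls. Spontaneous array 1, the lowest for Fmo1, Fmo2, Pon1 and Aox3 in its group, had the lowest spontaneous means of the club, ciliated, type 2, type 1, endothelial and immune lists. It was the highest of its group for Ces1d, at 12.20, and for the hepatocyte list, at 5.83.

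**Figure D4:**
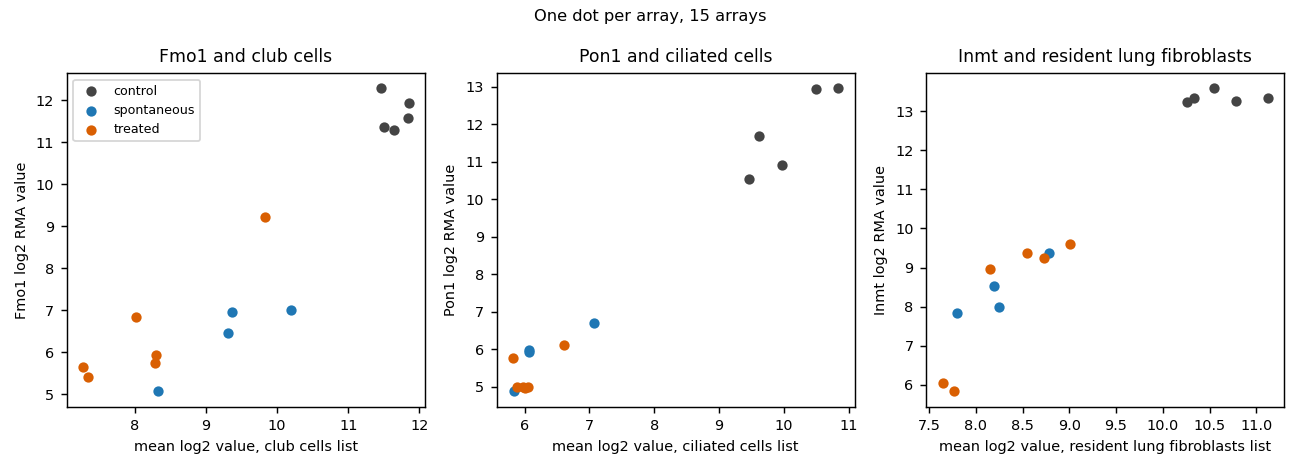
Log2 value of Fmo1, Pon1 and Inmt (y axes) against the mean log2 value of the club cell, ciliated cell and resident fibroblast marker lists (x axes); each dot is 1 of 15 arrays, coloured by group. Controls sit apart at the upper right of each panel, and among the tumors treated array 5 is high for Fmo1 at 9.23 and treated arrays 4 and 6 are low for Inmt at 5.83 and 6.05. The pairs shown have the highest correlations within groups of all enzyme and list pairs.

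The genes whose values ran most like each enzyme were found by Pearson's r over the 15 arrays, which share the 3 groups, and again after each group's mean was subtracted. For Pon1 they were Stmnd1 (r = 0.99, and 0.88 after subtraction) and Gm29538. For Fmo1 they were Adgre5 (0.98 and 0.87) and Ankrd33b, and for Inmt Sod3 (0.98 and 0.92) and Ncald. For Ephx1 they were Cyfip2 (0.96 and 0.70) and Lpar3, for Ces1d Mtus1 (0.95 and 0.87) and Cyp4f15, and for Fmo2 Neat1 (0.94 and 0.88) and Bgn. For Sult1a1 they were Brd9 (0.93 and 0.93) and Rab2b, and for Aox3 Rac3 (0.86 and 0.85) and Dnd1. These are the highest of 18193 genes by choice and are given as a description.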

How the data were processed

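RNA from 18 lung and lung tumor samples was hybridised to Affymetrix mouse arrays. The authors deposited log2 values per probe set, made with RMA (background correction, quantile normalization and probe summary), per the submitters' processing notes; its version is not given in the sources used here. RMA draws dim probe sets toward a floor and understates their folds, and the number of arrays limits the precision. No detection calls were used.

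Of 45101 probe sets, 64 were control probe sets, 34945 had 1 gene symbol, 932 had several and 9160 had none. The 18193 genes were each read from the probe set with the highest mean over the 15 arrays. limma 3.58.1 in R 4.3.3 fitted 1 mean per group to those arrays (lmFit, eBayes), with 3 comparisons; ± is the standard error and intervals are 95%. The fit was tested on simulated data. Exact permutation tests of single genes were two-sided, with smallest possible p of 0.00794 (spontaneous against control), 0.00216 (treated against control) and 0.00476 (treated against spontaneous). The 3 deviating arrays were left out, as the report says. Promoter sequences and gene positions came from RefSeq GRCm38.p6.

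The members and lists were chosen with earlier results of these data known. Named were all members and the 2 genes most correlated with each member. Pathway lists gave up to 4 genes per comparison (smallest p among those past the threshold), and cell type lists up to 2. Pon3, Nqo1, Sult1d1, Papss2, Foxj1, Scgb1a1, Col1a1, Marco, Itgax and Cd68 are outside this rule and were added after their values were seen. Alternatives were all 18 arrays, quantile normalization, median centring, a low filter, the mean of probe sets, each other probe set, variance trend with robust variances, array weights, only the arrays compared, a replicate block and each array left out. The authors' own tests, permutation-based at a false discovery rate of 5% per the labels, were not repeated.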

Additional observations from a re-analysis of the deposited data

Results flagged for a closer look

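In the 24 sets of values that the 8 enzymes form over 3 groups, 2 arrays stood far from the rest of their group by Dixon's gap test, which chance marks in about 1 in 20 groups. Treated array 5 had an Fmo1 value of 9.23, where the next of the 6 treated tumors was at 6.83. Spontaneous array 1 had an Fmo2 value of 9.38, where the next of the 4 spontaneous tumors was at 11.30.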

How the results depend on the processing

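With 5, 4 and 6 arrays a group, changes of the size seen for Aox3, and for Fmo2 in treated tumors, sat near the threshold, and a signal close to background is not marked as such. Quantile normalization, median centring, the variance trend with robust variances, array weights, averaging a gene's probe sets and only the arrays compared were tried. Each left the direction and the side of the threshold of all 16 enzyme values against control unchanged. The exact permutation test takes the same differences, so it could not change a direction. Its p is unadjusted, whereas a call rests on limma's adjusted p. For all 16 values it lay on the same side of the threshold as limma's unadjusted p. Leaving out arrays gave 0 to 1 enzymes called higher in spontaneous tumors, and the losses for Aox3 and Fmo2 are given above.

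With all 18 arrays, 3 enzymes were lower in each tumor group and 0 higher in spontaneous tumors, the differences of Aox3 in spontaneous and Ces1d in treated tumors turned to -0.030 and 0.039, and 9 and 10 pathway genes were lower and 0 and 2 higher. Of all genes, 570 and 812 were then lower and 176 and 541 higher against control, and 0 either way between treated and spontaneous tumors. Among genes with a mean at or above the median gene, 1223 and 1387 of all genes and 7 and 8 pathway genes were lower, and 14 pathway genes higher in treated tumors; fewer genes were tested there.

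Between treated and spontaneous tumors, genes called lower numbered 7 with the mean of probe sets, 7 with array weights, 0 with only the arrays compared and 0 to 11 with an array left out. Genes called higher numbered 2 with quantile normalization, 2 with the variance trend, 0 with only the arrays compared and 0 to 18 with an array left out. Enzyme differences that turned sign there, none past the threshold, were Fmo1 (-0.13 with 18 arrays, -0.13 with array weights, -0.45 to 0.31 with an array left out), Inmt (0.20, 0.087, -0.54 to 0.22), Aox3 (0.97 with 18 arrays), Ephx1 (0.11 with 18 arrays), Ces1d (-0.029 to 0.11 with an array left out) and Sult1a1 (-0.080 to 0.55). The cause was not tested.

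With the replicate number as a block, 6 enzymes were lower and 1 higher in spontaneous tumors and 6 lower in treated tumors, so no enzyme's call changed; between treated and spontaneous tumors 0 genes were lower and 0 higher, and Fmo1 differed by -0.34. Same-numbered arrays' deviations from their group means correlated at -0.149 to 0.298, over 0.1 in 2 of 13 pairs. These correlations alone cannot show whether the numbers pair the arrays.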

Other observations

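In the 3 arrays that stood apart and entered no comparison, control 5, spontaneous 5 and spontaneous 6, Fmo1 was at 7.02, 7.74 and 6.40 and Pon1 at 6.50, 7.34 and 7.58. Inmt was at 9.42, 7.60 and 6.57 in the same arrays.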
